A study of Mus musculus with 2 samples.

Results

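Germline genes are transcribed in germ cells and kept silent in the body's other tissues. The 8 described here were chosen by name, and for each one the DNase-seq peaks and hotspots of embryonic mouse hindbrain were taken within 1 kb of a GENCODE start, or 1 to 100 kb away where the gene had the nearest protein-coding start. They are 8 of 21827 protein-coding genes. Dazl encodes a germ cell RNA-binding protein and Ddx4 the mouse Vasa helicase of germ granules. Mael encodes Maelstrom, a protein of transposon silencing by piRNAs, and Sycp1 and Sycp3 encode structural proteins of the synaptonemal complex, which holds paired chromosomes together in meiosis. Tex101 encodes a glycoprotein of the male germ cell surface, Gdf9 a growth factor secreted by the oocyte, and Acrv1 a protein of the sperm acrosome.

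As background, a set of germline genes has promoters rich in CpG dinucleotides. In most tissues CpG-rich promoters are open, but those of many germline genes are known to be shut in somatic cells by DNA methylation and by a variant Polycomb complex that holds the DNA-binding proteins E2F6, MGA and MAX. Neither methylation nor the binding of these proteins was measured here.

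The samples are 2 biological replicates of 1 group, the hindbrain of healthy B6NCrl embryos at day 11.5, each pooled from male and female embryos and both under the same donor label. DNase I cuts DNA where chromatin is accessible, and peaks and wider hotspots of cutting were called by the authors in each library separately. A peak is 150 bp wide with a height of the authors' making, a whole number from 1 to 149 on the chromosomes analysed, whose scale may differ between the libraries. Replicate 1 had 150176 analysed peaks with a median height of 36, and replicate 2 had 194873 with a median of 50. Read depth is unknown. In pooled tissue, opening in few cells and weak opening in many cannot be told apart. With 2 libraries in 1 group no test across samples exists, and all comparisons below are descriptions. Of 12 genes used to check the tissue, all 12 had a promoter peak in replicate 2 and 9 in replicate 1, in which Hoxa2, Hoxb2 and Hoxb3 had none. Whether both libraries hold the same part of the hindbrain was not tested, and this bears on every peak seen in 1 library. Among markers of other tissues, the muscle gene Myod1 (47 in replicate 1 and 93 in replicate 2) and the macrophage gene Cd68 (37 and 60) had one in both libraries, and Alb of liver, Krt14 of epidermis, Gata1 of red cell precursors and Cdh5 of endothelium had none in either.

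The promoters of 5 of the 8 genes were rich in CpG. The following stretches hold the 200 bases before the most upstream annotated start, in the direction of the gene, from the RefSeq copy of the genome (GRCm38.p6, the build called mm10). CpG dinucleotides are in capitals, so that their density can be compared. Dazl is shown at both starts of its protein-coding transcripts in the basic annotation, since they differ in openness, and Acrv1 as the gene with the fewest CpG.
Dazl, upstream start, chr17:50293637-50293836, minus strand: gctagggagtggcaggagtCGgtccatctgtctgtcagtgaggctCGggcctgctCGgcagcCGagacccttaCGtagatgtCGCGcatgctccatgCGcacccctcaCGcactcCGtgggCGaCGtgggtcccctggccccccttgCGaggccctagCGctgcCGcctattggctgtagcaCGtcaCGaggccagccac
Dazl, downstream start, chr17:50292893-50293092, minus strand: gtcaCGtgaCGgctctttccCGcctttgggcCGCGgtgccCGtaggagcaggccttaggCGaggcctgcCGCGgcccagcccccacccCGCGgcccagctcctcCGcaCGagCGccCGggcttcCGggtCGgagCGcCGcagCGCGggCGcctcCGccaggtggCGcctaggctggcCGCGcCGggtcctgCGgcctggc
Mael, chr1:166238748-166238947, minus strand: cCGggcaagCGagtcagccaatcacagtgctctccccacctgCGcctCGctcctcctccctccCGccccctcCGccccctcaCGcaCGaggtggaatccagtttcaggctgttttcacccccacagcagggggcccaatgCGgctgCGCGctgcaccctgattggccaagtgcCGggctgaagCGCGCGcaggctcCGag
Sycp1, chr3:102936101-102936300, minus strand: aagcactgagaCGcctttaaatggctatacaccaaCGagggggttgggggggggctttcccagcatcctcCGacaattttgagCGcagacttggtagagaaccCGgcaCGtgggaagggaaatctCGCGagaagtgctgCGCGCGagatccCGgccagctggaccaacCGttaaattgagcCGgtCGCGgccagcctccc
Sycp3, chr10:88459369-88459568, plus strand: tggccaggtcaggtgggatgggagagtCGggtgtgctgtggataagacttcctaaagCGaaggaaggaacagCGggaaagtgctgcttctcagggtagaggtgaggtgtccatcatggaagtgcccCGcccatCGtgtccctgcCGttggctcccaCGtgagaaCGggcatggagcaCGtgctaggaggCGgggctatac
Acrv1, chr9:36693020-36693219, plus strand: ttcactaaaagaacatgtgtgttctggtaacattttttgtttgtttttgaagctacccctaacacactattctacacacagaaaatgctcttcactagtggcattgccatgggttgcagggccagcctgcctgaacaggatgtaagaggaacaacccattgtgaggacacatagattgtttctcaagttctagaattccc

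These stretches hold 17 CpG at the upstream start of Dazl, 28 at its downstream start, 16 at Mael, 16 at Sycp1, 10 at Sycp3 and 0 at Acrv1. From 500 bp before to 500 bp after the most upstream start, the ratio of observed to expected CpG was 0.742 at Ddx4, 0.734 at Dazl, 0.721 at Sycp1, 0.693 at Mael and 0.652 at Sycp3. It was 0.435 at Tex101, 0.212 at Gdf9 and 0.0233 at Acrv1. The median over the 8 genes was 0.673, against 0.571 over all protein-coding genes.

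Of the 8 promoters, only that of Dazl had a peak in both libraries, against 66.4% of all protein-coding genes. In replicate 1 a promoter peak was present at 2 of the 8 genes, Dazl and Sycp1, against 67.1% of all genes. Replicate 2 also gave 2, Dazl and Ddx4, against 69.5%. Mael, Sycp3, Tex101, Gdf9 and Acrv1 had none in either library, a state shared by 29.8% of all genes. A start inside a hotspot was found at Dazl alone in each library, against 61.3% of all genes in replicate 1 and 65.8% in replicate 2, and 61% in both. No other protein-coding gene had a start within 1 kb of any start of the 8, against 11.8% of all genes and 18.9% of those in the upper 5 deciles of CpG ratio.

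**Figure D1:**
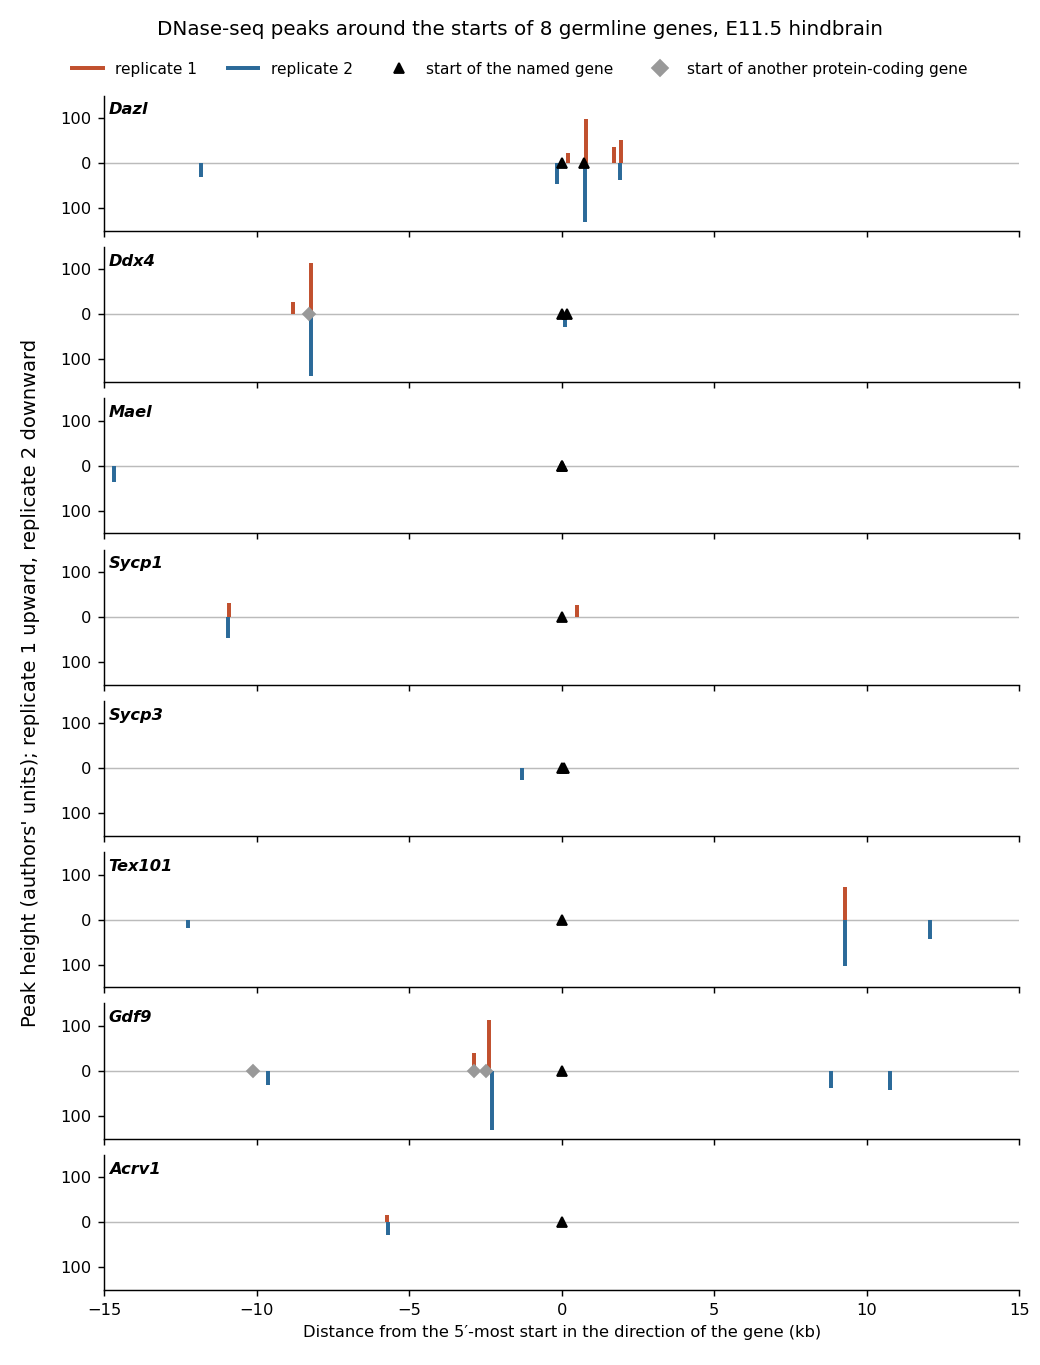
Peaks within 15 kb of the most upstream start of each of the 8 genes (horizontal axis, distance in kb in the direction of the gene), with bar length giving peak height in the authors' units, replicate 1 upward and replicate 2 downward. Triangles mark starts of protein-coding transcripts of the named gene in the basic annotation, and diamonds those of other protein-coding genes. Starts of other transcripts are not drawn. The tall pair at Dazl (99 and 130) stands at its downstream start, and that near Ddx4 at the start of Slc38a9. The tall pair near Gdf9 stands close to the start of Uqcrq and to that of an additional Gdf9 transcript, which is not drawn.

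The openness at Dazl lay at its downstream start. Dazl has 2 starts of protein-coding transcripts in the basic annotation, at position 50293636 of chromosome 17 on the minus strand and at 50292892, which is 744 bp further into the gene. The highest peak covered the downstream start, at chr17:50292776-50292925 with a height of 99 in replicate 1, and at chr17:50292796-50292945 with a height of 130 in replicate 2. Both heights were high within their own library, at percentile 94.3 of all peaks in replicate 1 and 96.9 in replicate 2. Among genes with a promoter peak they were ordinary, at percentile 49.1 and 62.0, with medians over such genes of 100 and 126. Around the downstream start the CpG ratio was 0.823, in the ninth decile of promoters.

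The upstream start of Dazl was only weakly marked. Replicate 1 had a peak of height 23 at chr17:50293356-50293505, 131 bp inside the gene from this start and at percentile 20.4 of that library's peaks. Replicate 2 had one of height 47 at chr17:50293696-50293845, 60 bp before the start and at percentile 45.9. These weak peaks do not overlap, so no site at the upstream start was found in both libraries. The hotspots differed in extent as well. In replicate 1 the hotspot over the downstream start was 751 bp wide and ended short of the upstream start, where a separate hotspot of 110 bp had a −log10 false discovery rate of 1.66. In replicate 2 a single hotspot of 1650 bp covered both starts. The hotspots over the downstream start carried 100, the highest value written in the files. Replicate 1 had 1 more peak within 1 kb of the downstream start, of height 35 in an intron at chr17:50291836-50291985.

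No other protein-coding start lay near that of Dazl, the nearest being that of the raft protein gene Rftn1 at 102962 bp. By percentile of promoter height in both libraries and of CpG ratio, the genes most like Dazl were Gpi1, the glycolytic glucose-6-phosphate isomerase (heights 99 and 130, CpG ratio 0.736), the cell polarity gene Llgl2 (97 and 130, 0.743) and the cell cycle phosphatase gene Cdkn3 (101 and 130, 0.732). Their distances from Dazl were 0.321, 3.03 and 3.40 percentile points over these 3 measures, from 2 libraries. For Dazl these measures join the heights at the downstream start with the CpG ratio of the upstream start (0.734), not the 0.823 of the downstream one.

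Ddx4 and Sycp1 had 1 weak promoter peak each, in different libraries. At Ddx4, replicate 2 had a peak of height 29 at chr13:112652296-112652445 in an exon, over the downstream of its 2 starts at 112652301, and replicate 1 had none. It lay at percentile 12.2 of the replicate 2 peaks, in a hotspot of 59 bp with a −log10 false discovery rate of 1.74. At Sycp1, replicate 1 had a peak of height 27 at chr3:102935516-102935665, 435 bp inside the gene from the start at 102936100, and replicate 2 had none. It lay at percentile 31.5 of the replicate 1 peaks, in a hotspot of 113 bp with a value of 1.64. Both hotspot values lie near 1.30, the lowest in the files, and neither hotspot covered the start. Each of these peaks was thus low and seen in 1 of 2 libraries.

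Mael and Sycp3 had no promoter peak, at CpG ratios whose deciles were open at 97.2% and 94.6% of genes. From the start of Mael (position 166238747 of chromosome 1, minus strand) the nearest peak was 15329 bp away in replicate 1 and 14589 bp in replicate 2. From the start of Sycp3 (position 88459569 of chromosome 10, plus strand) it was 32884 bp away in replicate 1 and 1224 bp in replicate 2, where that peak had a height of 26. Over the 8 genes the median distance to the nearest peak was 6898 bp in replicate 1 and 3914.5 bp in replicate 2, against 52 bp and 50 bp over all genes.

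**Figure D2:**
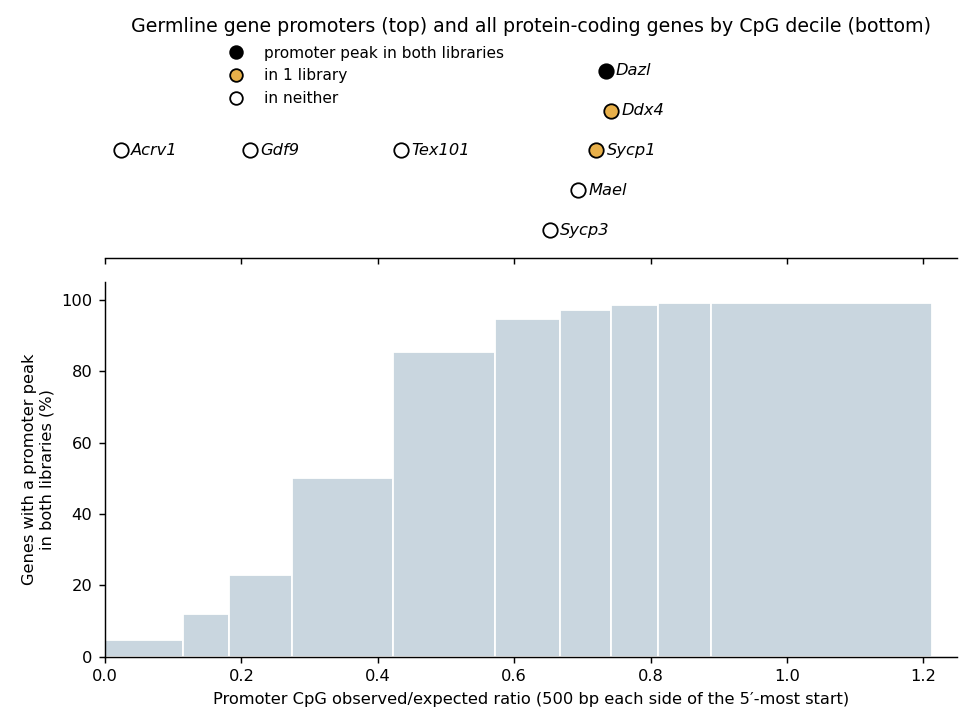
Above, the 8 germline genes at their promoter CpG ratio (horizontal axis, observed over expected CpG from 500 bp before to 500 bp after the most upstream start), filled in black where a promoter peak was found in both libraries, in yellow where in 1 library and in white where in neither. Below, the share in percent of all protein-coding genes with a promoter peak in both libraries, by decile of the CpG ratio (bar edges are the decile limits). Dazl, Ddx4, Sycp1, Mael and Sycp3 lie over bars of 94.6% to 98.4%, and only Dazl is black.

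Across the genome, promoter openness followed CpG content closely. A promoter peak in both libraries was present at 4.67% of genes in the lowest decile of CpG ratio, 23.0% in the third, 85.4% in the fifth and 97.2% in the seventh. The 5 CpG-rich germline genes fell in deciles 6 to 8, and 1 of the 5 had a peak in both libraries, against 97.7% of the 10914 genes of deciles 6 to 10. Genes of those deciles with no promoter peak at all were few, 144 genes or 1.32%, and Mael and Sycp3 were 2 of them. Tex101, in the fifth decile, was also without a peak, as were 233 of 2182 genes of that decile. For Gdf9 and Acrv1 the absence was the usual state at their CpG content: 67.9% of genes in the decile of Gdf9 and 90.8% in that of Acrv1 had no peak in either library.

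The nearest neighbour was open in both libraries at 6 of the 8 germline genes, Rftn1 beside Dazl (44 and 88) included, a share near the 66.4% of all genes. The nearest protein-coding start to Ddx4 is that of Slc38a9, a lysosomal amino acid transporter gene, 8291 bp upstream, with heights of 115 and 136. Gdf9 lies next to Uqcrq, a gene of a respiratory chain subunit transcribed the other way, whose start is 2472 bp from that of Gdf9 and had heights of 114 and 132. An additional Gdf9 transcript, not annotated as protein-coding and not in the basic set, begins at 53431023 of chromosome 11, inside the same open region, so with all annotated starts Gdf9 would count as open. The start of its protein-coding transcript at 53433299 had no peak closer than 2294 bp in replicate 1 and 2214 bp in replicate 2. Mael has Ildr2 at 15392 bp (71 and 104), Sycp3 has the phospholipid synthesis gene Chpt1 at 44349 bp (91 and 127), and Acrv1 has the checkpoint kinase gene Chek1 at 32643 bp (101 and 126). Tex101 has Lypd3 at 35500 bp, with no peak in replicate 1 and 79 in replicate 2. The nearest neighbour of Sycp1, the nuclear receptor gene Nr1h5 at 22283 bp, had no promoter peak in either library.

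Acrv1 shares its promoter with starts of non-coding transcripts on the other strand, of 1700027I24Rik 31 bp and 70 bp upstream and of Gm49367 251 bp upstream. None of these starts had a peak within 1 kb in either library.

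Motifs known from factors of germline gene control were then looked for in the 300 bases from 250 before to 50 after the most upstream start, on both strands. TCCCGC, the core of sites bound by E2F factors, was present at 4 of the 5 CpG-rich genes (Ddx4, Mael, Sycp1 and Sycp3), against 41.4% of promoters of CpG deciles 6 to 10. CACGTG, the E-box bound by MAX and its partners, was present at 3 of them (Mael, Sycp1 and Sycp3), against 10.8%. The Sycp3 promoter printed above holds 2 such E-boxes (caCGtg as printed), at offsets of -46 and -25 bases from the start, and 1 TCCCGC on the other strand, at -129. TGACGTCA, the cyclic AMP response element, was present at 0 of the 8 genes and in 2.50% of all promoters. CNCCTCAG, the sequence described for STRA8 and MEIOSIN, was present at Dazl and Sycp1, and in 8.18% of all promoters. The window at the upstream start of Dazl held neither TCCCGC nor CACGTG. Its downstream start, the open one, held 1 TCCCGC at an offset of -183 bases and 2 CACGTG at -198 and -218. At Dazl, the open gene, these 2 motifs were thus seen only at the downstream start. A second start was searched at Dazl alone, and no share over all genes was computed for such starts. Among all 144 CpG-rich genes without a peak TCCCGC was present at 21.5% and CACGTG at 18.8%. In a wider set of germ cell genes, described below, TCCCGC was present at 20 of 87, against 25.1% of all promoters. CACGTG was present at 14 of these 87, against 7.77%.

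The mean number of distal sites at the germline genes was below that of all genes, and the median was the same. Distal sites lie over 1 kb from any protein-coding start, and a site was counted as shared where peaks of both libraries overlapped. The 8 genes had 9 shared distal sites, with 1.13 per gene on average and a median of 1, against 2.52 on average and a median of 1 over all genes. At least 1 was present at 6 of the 8, against 63.8% of all genes, so their share was close to the background. By gene there were 3 at Mael, 2 at Dazl, 1 each at Sycp1, Sycp3, Tex101 and Acrv1, and none at Ddx4 or Gdf9. Replicate 1 alone gave 11 sites and replicate 2 gave 21, or 1.38 and 2.63 per gene against 3.67 and 5.08 over all genes. With only peaks above the median height of their library, shared sites fell to 0.25 per germline gene. The mean over all genes under this filter was not computed, so the fall cannot be called particular to these genes.

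**Figure D3:**
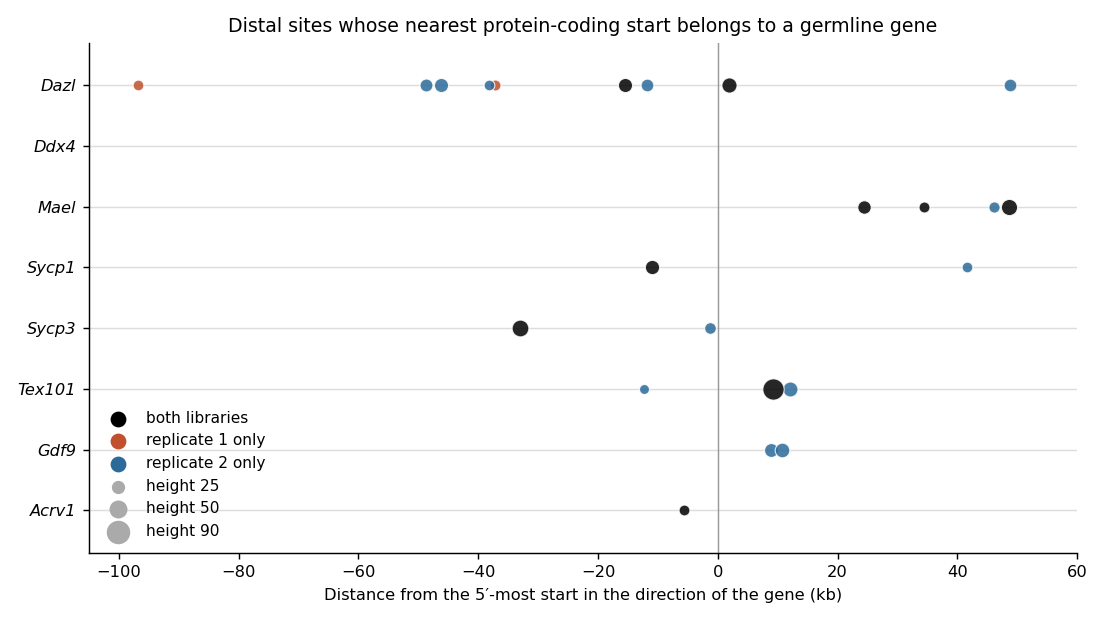
Distal sites nearest to each of the 8 genes by distance from the most upstream start (horizontal axis, kb in the direction of the gene). Colour shows the library or libraries with a peak and dot area the height, or the mean height where both had one. Shared sites number 9 of 23, the largest dot lies 9290 bp downstream of the Tex101 start, and Ddx4 has no site.

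The shared distal sites were mostly low. Their median height was 35 in replicate 1 and 43 in replicate 2, against 43 and 67 over all shared distal sites. The highest was at Tex101, 72 and 102 at chr7:24662676-24662845, past the end of the gene and between genes. At Dazl the site at chr17:50291616-50291785 in an intron, 1107 bp beyond the downstream start, had 51 and 37. The other Dazl site, at chr17:50309016-50309165 upstream of the gene, had 33 and 43. The 3 sites of Mael lay 24367, 34467 and 48677 bp downstream of its start, the nearer pair in introns of the gene, with heights of 35 and 34, 18 and 28, and 50 and 50. Those of Sycp1 (31 and 47, in an intron of Nr1h5), Sycp3 (45 and 63, in an intron of the neighbouring gene Gnptab) and Acrv1 (17 and 28, between genes) completed the list.

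Inside the gene bodies peaks were sparse as well. Over 1 kb from any protein-coding start, the 8 genes held 5 peaks in each library over 251 kb, or 1.99 per 100 kb, against 5.26 in replicate 1 and 7.40 in replicate 2 over the bodies of all genes. Ddx4, 54.1 kb long, and Sycp3, 13.7 kb long, held none in either library. Sycp1, the longest at 118 kb, held 2 in each, Mael 2 in each and Dazl 1 in each.

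A wider set of 87 measured germ cell genes in 5 lists was described in the same way, 1 listed gene (Meiosin) having no match by symbol. In both libraries 31 of the 87 had a promoter peak, against 66.4% of all genes, and 53 had none in either. A start inside a hotspot was found at 25 of the 87 in replicate 1 and 29 in replicate 2, against 61.3% and 65.8% of all genes. Adding up, gene by gene, the open share of all genes in the same CpG decile gives 59.0 for these 87 and 5.98 for the 8. The same sum by list was 5.63 for the 10 specification and pluripotency genes, of which 1 was open, and 11.3 for the 14 piRNA pathway genes, of which 4 were open. It was 23.1 for the 26 meiosis genes, of which 15 were open. It was 8.45 for the 17 oocyte genes, of which 6 were open, and 10.6 for the 20 spermatid genes, of which 5 were open. The open count was below the sum in each list, and the sums themselves differed with the CpG content of the lists.

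Among specification and pluripotency genes, only the embryonic stem cell factor gene Utf1 was open (43 and 102), while Dnd1, which guards germ cell survival, and Dppa2 had no peak. Of 14 genes of the piRNA pathway and germ granule, 4 were open. These were the Tudor domain genes Tdrkh (122 and 135), Tdrd5 (52 and 106) and Tdrd6 (45 and 85), and Pld6 of the mitochondrial surface (60 and 85). Asz1 and Gtsf1, both of the piRNA pathway, had no peak.

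Of 26 meiosis genes, 15 were open, led by the heat shock gene Hspa2 (127 and 140), the histone reader gene Zcwpw1 (120 and 141) and the meiotic cohesin gene Stag3 (120 and 140). Another protein-coding start lies within 1 kb of that of Stag3, so its peak cannot be given to 1 gene. Hormad1, of the chromosome axis, and Majin, of the tethering of telomeres to the nuclear envelope, had no peak.

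Of 17 oocyte genes, 6 were open: the receptor gene Kit (110 and 136), the homeobox gene Lhx8 (51 and 106), Zar1 (39 and 98), Ooep (58 and 76), the kinase gene Mos (26 and 75) and Padi6 (34 and 53). Mos and Padi6 had no start inside a hotspot in either library, and Zar1 had one in replicate 2 only. Kit and Lhx8 are also used outside germ cells. Such use was not assessed for the other open genes of the 5 lists, and some of them may have it too. Bmp15, the partner of Gdf9 in the oocyte, and Figla, an oocyte transcription factor gene, had no promoter peak. Of 20 spermatid genes, 5 were open: the cyclic AMP responsive factor gene Crem (112 and 135), Tekt1 (94 and 120), Zpbp (92 and 119), Izumo1, of sperm and egg fusion (32 and 56), and Spaca1 (21 and 67). Spaca1 had a start inside a hotspot in replicate 2 only, and Izumo1 in replicate 1 only. The acrosomal genes Acr and Acrbp had no promoter peak.

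**Figure D4:**
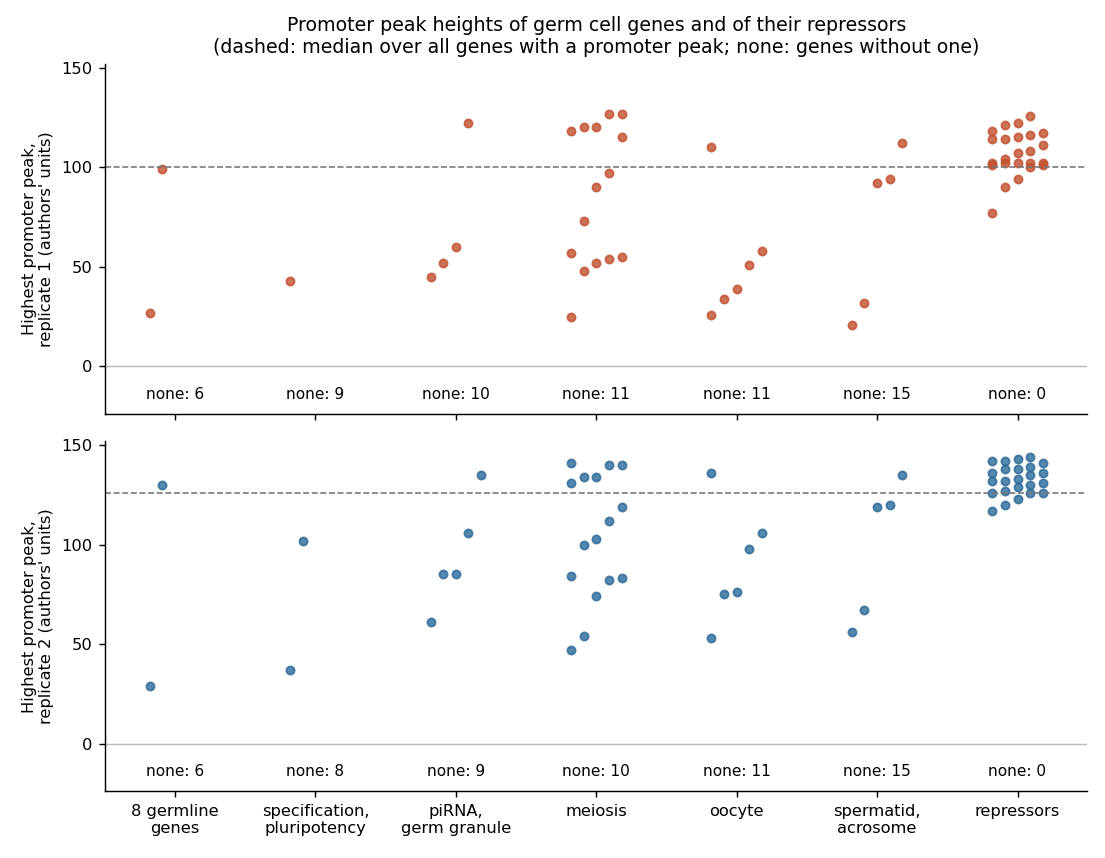
Height of the highest promoter peak (vertical axis, authors' units) of each gene that had one, for the 8 germline genes, 5 wider germ cell lists and a list of repressors, with replicate 1 above and replicate 2 below. The number under each column counts genes with no promoter peak and the dashed line is the median over all genes with one (100 and 126). Only the repressor list has no gene without a peak.

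The wider lists split along CpG content. In deciles 6 to 10 of the CpG ratio 26 of 34 genes were open, against 97.7% of all genes there, and in deciles 1 to 5 it was 5 of 53, against 35.0%. The CpG-rich genes with no peak in either library numbered 7 of 34, against 1.32% of all genes of these deciles. They were Sycp2 and Hormad1, which like Sycp3 belong to the meiotic chromosome axis, Tex12, which like Sycp1 belongs to the central region of the synaptonemal complex, Spo11, which makes the meiotic DNA breaks, Tex11, and the piRNA pathway genes Mov10l1 and Asz1. These 7 were named after their values were seen. Other CpG-rich genes of the same structures were open in both libraries. Among them were Syce2 of the central region (48 and 103) and the cohesin genes Smc1b (90 and 112) and Stag3 (120 and 140). Open promoters of the wider lists had median heights of 58 in replicate 1 and 103 in replicate 2, against 100 and 126 over all genes with a promoter peak and 36 and 50 over all peaks. The lists differed in this, with 90 and 112 at open meiosis genes and 92 and 119 at open spermatid genes, but 45 and 87 at open oocyte genes. Of the 31 open genes, 3 had another protein-coding start within 1 kb: Smc1b, Stag3 and Tex14, all of the meiosis list. Their median heights were 115 and 131, against 56 and 101 at the other 28. Dazl, at 99 and 130, stood near the medians of all genes.

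Genes of the repressors of germline promoters were open without exception. All 24 had a promoter peak in both libraries, against 66.4% of all genes, and a count of 22.6 would follow from the shares of their CpG deciles. Much of the gap to 24 came from Dnmt1. Its most upstream start, which set its decile, had a CpG ratio of 0.0588, in the lowest decile (4.67% open). Its promoter peak was counted within 1 kb of any of its starts. A start inside a hotspot was found at 23 of the 24 genes in each library, against 61.3% of all genes in replicate 1 and 65.8% in replicate 2. Setdb1 had no start inside a hotspot in either library. The median heights of the 24 genes were 105.5 and 132.5. The highest were Cbx3 (122 and 143), of the heterochromatin protein family, Hdac1 (121 and 144), a histone deacetylase, and Uhrf1 (118 and 142), which brings DNA methylation upkeep to replicating DNA. Named for their role and after their values were seen, E2f6 had 94 and 117, Mga 114 and 131, Max 126 and 132, Dnmt1, the maintenance methyltransferase gene, 114 and 126, and Dnmt3b, a gene of new methylation, 77 and 126. An open promoter is no measure of the amount or activity of the protein.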

How the data were processed

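Peaks and hotspots were called by the authors in each library on reads aligned to mm10, per the text deposited beside the files. No label or header names the aligner, the caller or the filters. Peak height, as deposited, is a signal value of unstated scaling. Each hotspot, as deposited, has a −log10 false discovery rate and a score that repeats this in coarser steps. Entries off chromosomes 1 to 19, X and Y and repeated positions were left out, and no peak passed the end of its chromosome in GRCm38.p6. Starts were those of protein-coding transcripts in the basic set of GENCODE M21 (41433 starts of 21827 genes by symbol). A promoter peak lay within 1000 bp of any start of the gene. Overlapping peaks (1 bp or more) formed a site. Sites over 1000 bp from all starts were given to the nearest start within 100 kb. Genes were put in deciles of CpG ratio at the most upstream start. The 8 genes, the lists and the motifs were chosen with earlier results of these data known, and no list was tested. Named in each list were all open genes where 6 or fewer, otherwise the 3 highest by mean rank, and the first 2 by alphabet without a peak. The counting was checked on simulated peaks at known places. Python 3.11.15, numpy 2.4.6, pysam 0.24.0 and matplotlib 3.10.9 were used. Depth is unknown, so absence of a peak means that none was called. Alternatives covered the window, the distance limit, peak height, overlap, annotation, CpG window and each library alone. A marker of the tissue check is not reported here.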

Additional observations from a re-analysis of the deposited data

How the results depend on the processing

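No paired analysis was possible because there is 1 group. Of 30 alternatives over 6 results, 23 stayed within 1.5 times the count reported or, for means, within 1 SD between the libraries, which is wide for the distal sites. Dazl was open under each of the 6 promoter settings tried. The number of the 8 genes open rose to 2 with a window of 2500 bp or with the starts of all transcripts. Gdf9 was added both times, through the peaks close to the starts of Uqcrq and of the additional Gdf9 transcript. The number open was 2 without replicate 1 (Ddx4 added) and 2 without replicate 2 (Sycp1 added). The mean number of distal sites ranged from 1.38 to 2.63 when either library was left out, against 1.13 for sites shared by both. It was 0.25 with only peaks above the median height of their library and 0.75 when starts of all annotated genes competed, both below the value of either library alone. Means over all genes under these settings were not computed. The mean share of open genes in the CpG deciles of the 8 genes was 74.7%, with 71.3% for a CpG window of 1000 bp on each side and 75.2% to 77.3% with 1 library, a setting added after the data were seen. The wider germ cell count was 31, with 26 for peaks above the median height and 42 at 2500 bp, and all 24 repressor genes stayed open under all 5 settings. The share of all genes with a promoter peak was 67.1% in replicate 1 and 69.5% in replicate 2, against 66.4% in both. For the changed windows, the height filter and the starts of all transcripts this share was not computed, so those counts have no background beside them. Dazl alone was counted under each of the 4 hotspot settings, 1 of which asked only for a hotspot within 1 kb of a start. The single-library settings for hotspots were also added after the data were seen. The cause of these shifts was not tested. At unknown depth, and with the sameness of the dissected tissue not tested, a peak in 1 of 2 libraries cannot be told from a missed call or a difference between the tissues taken.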
